A study of Homo sapiens and Mus musculus with 15 samples.

Results

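ATF4, the transcription factor at the end of the amino acid response, 21 genes known as its targets or partners, and 12 cytosolic aminoacyl-tRNA synthetases were followed in ARPE-19 cells, an established human retinal pigment epithelium (RPE) line. The 34 genes were chosen by name, as an ATF4 list of 22 and a synthetase list of 12. Earlier results of these data were known when they were chosen. All 34 were among the 61071 rows of the deposited table and among the 14606 genes that passed the filter on low values. Bulk poly-A RNA-seq was done on 9 libraries, 3 each from cells with a control vector on plastic, cells with a control vector on a gel of 1.5 kPa, and cells overexpressing HA-tagged YAP (YAP-HA) on that same stiffness, and RNA was taken after 5 days. The sources used here give neither the promoter of the YAP-HA construct nor whether the cells are a clone. YAP-HA was not measured on plastic, so stiffness and YAP-HA cannot be crossed. The labels do not say that replicates were separate cultures, and p-values then measure only the spread between these libraries, which may be technical.

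As background, cells that run short of an amino acid, or whose endoplasmic reticulum (ER) is stressed, phosphorylate the translation factor eIF2, which slows protein synthesis in general and raises translation of ATF4. The output of ATF4 is therefore set to a large degree at translation, and its mRNA need not move with that of its targets. ATF4 pairs with C/EBP family proteins on composite DNA elements, and its targets rebuild the amino acid supply. They include enzymes that make serine, glycine and asparagine, membrane transporters, and the synthetases that load amino acids onto tRNA. YAP is a co-activator of TEAD transcription factors whose activity is lowered on soft substrates.

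The composite element was looked for in RefSeq promoters (GRCh38.p14), which run from 250 bases before to 50 bases after each annotated gene start. Genes are known as ATF4 targets partly through this element, so its share in the lists is a description and not independent of their choice. Of the 34 genes, 29 had a promoter entry, and PSPH, SHMT2, SLC7A11, LARS1 and YARS1 were not matched. The letters TGATGNAA (reverse complement TTNCATCA, both strands searched, any entry of a gene counted) were found in 3.62% of 35116 promoters. They were found for 6 of 19 matched genes of the ATF4 list and for 7 of 10 matched synthetases. Shares of all promoters are per promoter entry, whereas the lists are counted per gene, with up to 3 entries for a member. The 2 kinds of share therefore differ in unit, and more entries raise the share per gene. Of the synthetases 6, and of the ATF4 list 3, held the form TGATGCAA, which is 1 case of the same motif and stood in 0.866% of all promoters. The cyclic AMP type element TGACGTCA, its own reverse complement, was in 1.85% of all promoters and in none of the 29. Among genes not in the lists, the motif TGATGNAA was found for 0 of 9 matched other cytosolic synthetases and scaffold proteins, 1 of 14 matched mitochondrial synthetases and 5 of 17 matched other ATF4 targets. A match to these letters is not a shown binding site. Windows of 30 bases around the motif, which is in capitals, follow for 6 of the 7 synthetases, which make up the list with the highest share, and for asparagine synthetase (ASNS) and the transporters SLC7A1 and SLC1A4 as examples of the ATF4 list, each read 5′ to 3′ along the strand of the gene.
AARS1, chr16:70289675-70289704, minus strand: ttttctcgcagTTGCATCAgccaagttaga
CARS1, chr11:3057407-3057436, minus strand: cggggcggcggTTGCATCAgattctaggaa
GARS1, chr7:30594834-30594863, plus strand: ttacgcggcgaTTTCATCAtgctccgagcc
IARS1, chr9:92293692-92293721, minus strand: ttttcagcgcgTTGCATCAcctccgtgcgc
MARS1, chr12:57488053-57488082, plus strand: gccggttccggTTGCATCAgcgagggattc
TARS1, chr5:33440956-33440985, plus strand: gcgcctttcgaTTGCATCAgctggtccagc
ASNS, chr7:97872458-97872487, minus strand: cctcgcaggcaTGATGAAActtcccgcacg
SLC7A1, chr13:29595663-29595692, minus strand: gggcgcactgcTGATGAAAcctggcgccgg
SLC1A4, chr2:64989381-64989410, plus strand: gcggctcccgtTTGCATCAtctccagccgg

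In 5 of these synthetases the printed strand carries the C form in reverse complement (TTGCATCA), and GARS1 has another base at the open position. Over all 13 genes, 6 matches lay before the annotated start and 7 touched it or lay in the transcribed bases that follow. Of all 13 motif positions, 9 lay within 50 bases of the gene start, among them the promoters of CARS1, IARS1, MARS1, NARS1 and TARS1, whereas the match of AARS1 began 187 bases and that of CHAC1 209 bases before it.

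Levels are TPM, the share of a transcript in the total after correction for its length, so a gene can move because others take up more of the total, and the depth of the libraries is unknown. Transcripts encoded in mitochondria made up 18.2% to 20.3% of the total on plastic, 12.7% to 15.1% on the gel and 18.6% to 20.2% with YAP-HA. YAP1 itself was measured at 115 to 126 TPM on plastic, 55.9 to 77.3 TPM on the gel and 2209 to 2469 TPM with YAP-HA, as its label says, and the row does not separate the construct from the cell's own gene. The YAP target CCN2 was lower on the gel (log2 difference -1.62 ± 0.062 (SE), adjusted p = 2.08e-07) and higher with YAP-HA than on the gel (log2 difference 0.25 ± 0.062 (SE), adjusted p = 0.00811), and CCN1 had the same directions (-0.49 and 0.21, adjusted p = 3.91e-05 and 0.00364). ANKRD1, another such target, was higher on the gel (log2 difference 0.21 ± 0.073 (SE), adjusted p = 0.0344), a call that was lost without plastic replicate 1 or 3 or gel replicate 2 or 3 (adjusted p = 0.0732 to 0.120) and without mitochondrially encoded genes (log2 difference 0.12), and lower with YAP-HA than on the gel (log2 difference -0.79 ± 0.073 (SE), adjusted p = 1.77e-05). With YAP-HA, CCN2, CCN1 and ANKRD1 were all below plastic (-1.37, -0.28 and -0.58, adjusted p = 2.12e-07, 0.0013 and 0.000247), with mean CCN2 at 468 TPM on plastic and 180.3 TPM with YAP-HA. Of 12 RPE markers, 8 passed the filter, RPE65 and TTR were listed at 0 in all libraries and TYR and TYRP1 stayed below 1 TPM. Of 9 markers of other cell types 8 stayed below 1 TPM, and CD68 was the exception. In bulk RNA, fewer cells of a type and less RNA per cell cannot be told apart.

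On the gel, most of both lists was lower than on plastic. Differences were tested with limma on log2(TPM + 1) in 1 fit of the 9 libraries, and a gene was called at an adjusted p under 0.05 over all 14606 genes. Of the ATF4 list 15 of 22 genes were called lower and 2 higher, with a median log2 difference of -0.40. Of the synthetases 10 of 12 were called lower and 1 higher, with a median of -0.28. Across all genes 50.5% were called, 27.9% lower and 22.6% higher, with a median of -0.04. The libraries of the groups did not overlap for 26 of the 34 genes in the lower direction, beside 31.2% of all genes, and for 3 in the higher direction, beside 26.6%.

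With YAP-HA on the gel, most of both lists was higher than in control cells on the gel. Of the ATF4 list 12 of 22 genes were called higher and 4 lower (median 0.26), and of the synthetases 9 of 12 higher and 1 lower (median 0.27). The background was 48.4% called, 24.5% higher and 23.9% lower, with a median of 0.01. For 21 of the 34 genes the YAP-HA libraries all lay above the gel libraries, beside 28.3% of all genes, and for 6 they all lay below, beside 28.5%. The gel libraries enter this comparison and the previous one, so the opposite directions are not independent.

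YAP-HA cells on the gel were also set against control cells on plastic. Of the ATF4 list 8 genes were called lower and 1 higher (median -0.07), and of the synthetases 2 lower and 1 higher (median -0.04). Across all genes 34.4% were called, 20.2% lower and 14.2% higher, with a median of -0.05. The share of the ATF4 list that was called lower was above that background, and 22 of the 34 genes were not called. Of the 34 genes, 13 had all YAP-HA libraries below all plastic libraries, beside 28.4% of all genes, and 5 had them all above, beside 21.4%. A p above the threshold does not show that the levels were alike.

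**Figure D1:**
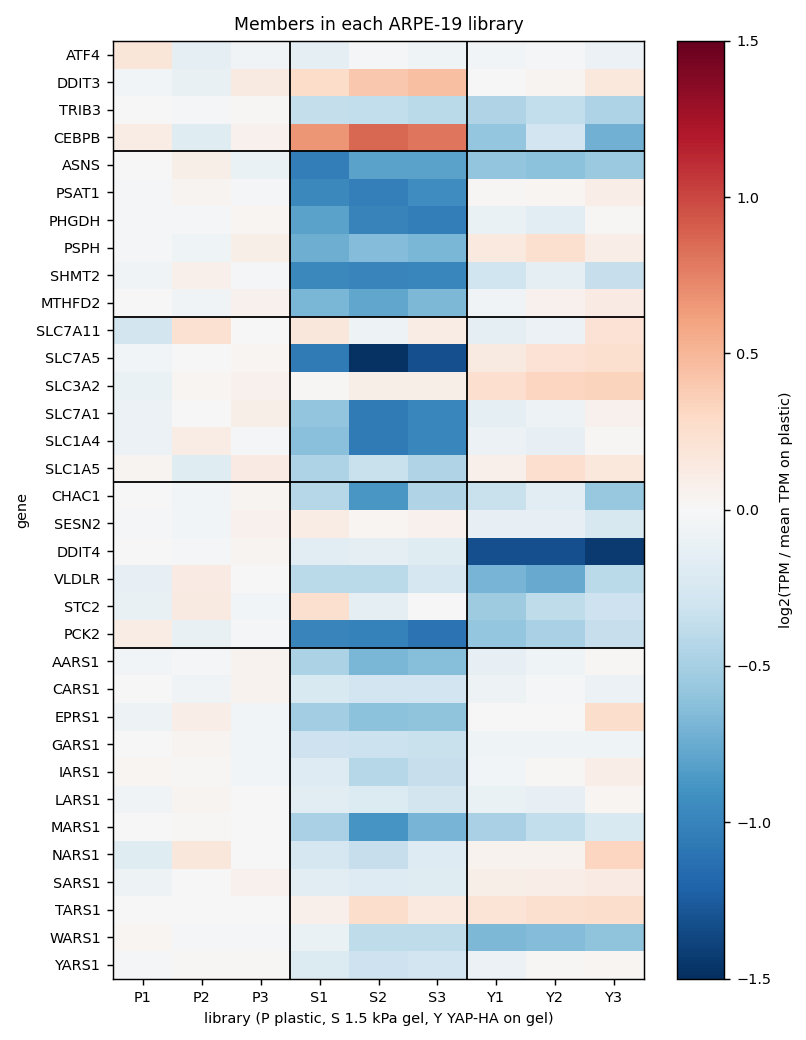
Each of the 34 genes (rows, grouped by role) in each of the 9 libraries (columns), coloured by the log2 ratio of its TPM to the mean on plastic, with blue below and red above. The gel columns are blue for most rows, CEBPB and DDIT3 are red there, and DDIT4 is darkest in the YAP-HA columns.

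**Figure D2:**
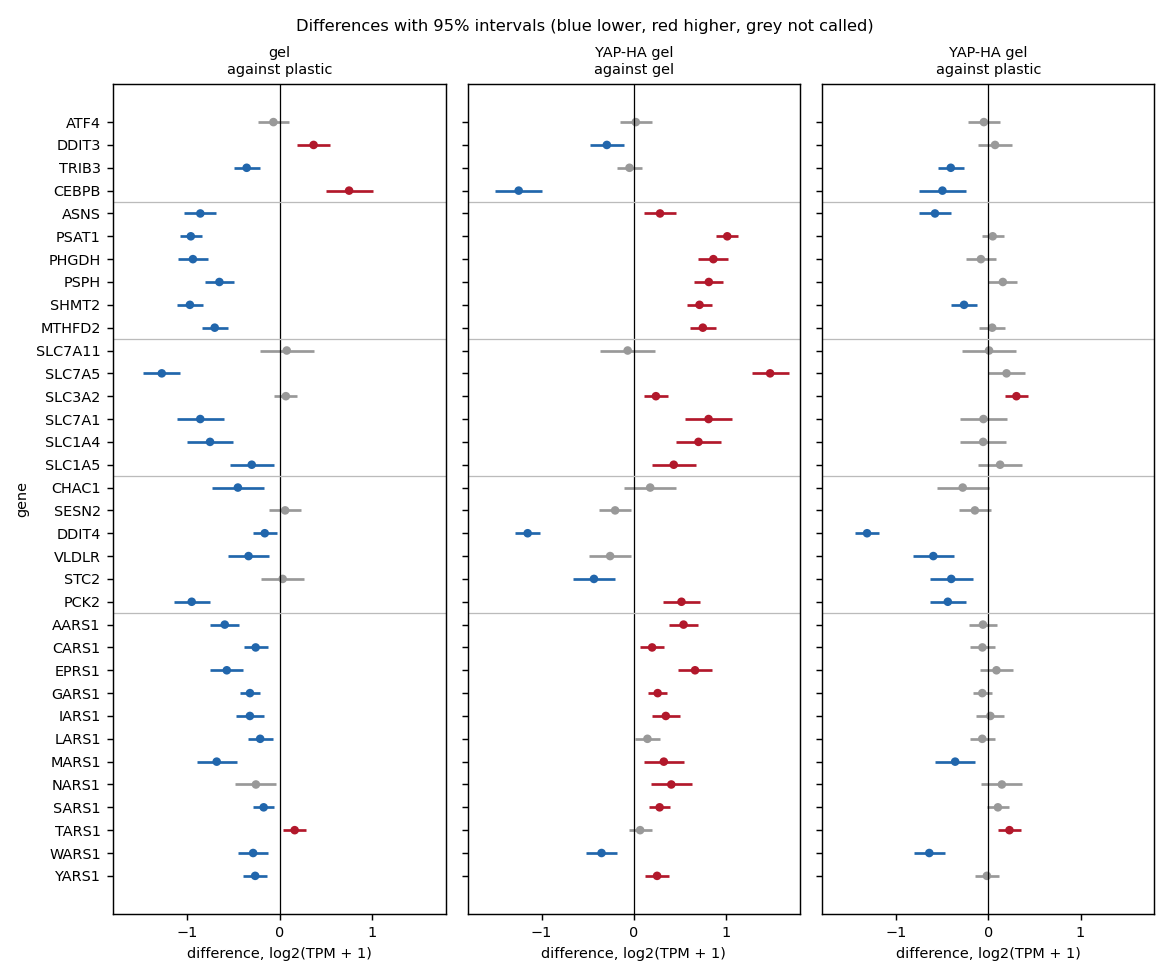
Difference in log2(TPM + 1) (x axis) for each of the 34 genes (y axis) in the 3 comparisons, with 95% intervals as lines. Blue marks genes called lower, red genes called higher and grey genes not called.

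ATF4 itself, the factor the list is named for, was not called in any comparison. ATF4 was measured at 411, 329 and 351 TPM on plastic, 332, 358 and 347 TPM on the gel and 353, 357 and 342 TPM with YAP-HA. The groups overlapped, and plastic replicate 1 was the highest of all 9. The difference between gel and plastic had a 95% interval of -0.24 to 0.10 on the log2 scale, and that between YAP-HA and gel one of -0.15 to 0.19. The levels of its protein were not measured in these data.

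Of its partners, CEBPB and DDIT3 rose on the gel, against the direction of most of the list. CEBPB encodes C/EBPβ, a factor that can pair with ATF4. CEBPB was measured at 23.7, 19.4 and 23.0 TPM on plastic, 34.8, 39.9 and 38.4 TPM on the gel and 14.7, 18.0 and 13.4 TPM with YAP-HA. The 3 groups did not overlap: the gel was highest and YAP-HA lowest. It rose on the gel against plastic (log2 difference 0.75 ± 0.115 (SE), adjusted p = 0.00056) and fell with YAP-HA against the gel (log2 difference -1.25 ± 0.115 (SE), adjusted p = 1.63e-05) and against plastic (log2 difference -0.50 ± 0.115 (SE), adjusted p = 0.00793). DDIT3 encodes CHOP, a C/EBP family factor of the later stress response. DDIT3 was measured at 28.5, 27.1 and 32.1 TPM on plastic, 35.4, 38.6 and 40.0 TPM on the gel and 29.5, 30.2 and 32.7 TPM with YAP-HA. All gel libraries lay above the plastic libraries (log2 difference 0.37 ± 0.082 (SE), adjusted p = 0.00422) and above the YAP-HA libraries (log2 difference -0.29 ± 0.082 (SE), adjusted p = 0.0133), but plastic and YAP-HA overlapped. The second of these calls was lost on leaving out gel replicate 3 or YAP-HA replicate 1 (adjusted p = 0.0506 to 0.0560).

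TRIB3, a pseudokinase induced by ATF4 that dampens its activity, fell on the gel. TRIB3 was measured at 23.9, 23.8 and 24.4 TPM on plastic, 18.7, 18.6 and 18.2 TPM on the gel and 17.6, 18.6 and 17.4 TPM with YAP-HA. Plastic stood apart from both gel groups, which overlapped. The difference to plastic was called for the gel (log2 difference -0.36 ± 0.063 (SE), adjusted p = 0.00118) and for YAP-HA (log2 difference -0.41 ± 0.063 (SE), adjusted p = 0.00082), while that between YAP-HA and gel was -0.05 (adjusted p = 0.549). The summed TPM of these 4 regulators, of which ATF4 is most, ranged from 399 to 487 over the 9 libraries.

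The enzymes of serine and glycine synthesis, mitochondrial folate metabolism and asparagine synthesis were lower on the gel without exception, at 6 of 6 called, and higher with YAP-HA than on the gel, again at 6 of 6. Their median log2 differences were -0.90 and 0.78. Of all genes, 27.9% were called lower on the gel and 24.5% higher with YAP-HA than on the gel. Summed over the 6 genes the level was 636 to 658 TPM on plastic, 342 to 354 TPM on the gel and 579.8 to 608 TPM with YAP-HA.

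PHGDH, PSAT1 and PSPH catalyse the successive steps from a glycolytic intermediate to serine. PHGDH was measured at 131, 131 and 134 TPM on plastic, 75.5, 65.6 and 64.0 TPM on the gel and 123, 118 and 133 TPM with YAP-HA. On the gel the mean was 51.9% of that on plastic (log2 difference -0.94 ± 0.073 (SE), adjusted p = 1.23e-05). With YAP-HA it was above the gel (log2 difference 0.86 ± 0.073 (SE), adjusted p = 9.50e-06) and overlapped plastic (log2 difference -0.08, adjusted p = 0.436). PSAT1 was measured at 106, 111 and 106 TPM on plastic, 55.2, 52.8 and 56.4 TPM on the gel and 109, 109.9 and 116 TPM with YAP-HA. The gel libraries lay apart from all others, at 50.9% of the plastic mean (log2 difference -0.96 ± 0.054 (SE), adjusted p = 1.76e-06), and YAP-HA lay above the gel (log2 difference 1.01 ± 0.054 (SE), adjusted p = 3.18e-07). PSPH was measured at 23.4, 22.9 and 25.5 TPM on plastic, 14.5, 15.2 and 14.9 TPM on the gel and 26.6, 28.2 and 25.7 TPM with YAP-HA. Gel was again lowest (log2 difference -0.65 ± 0.071 (SE), adjusted p = 8.43e-05), and the YAP-HA libraries lay above both the gel (log2 difference 0.81 ± 0.071 (SE), adjusted p = 1.11e-05) and, narrowly, plastic, where the difference was not called (adjusted p = 0.109).

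SHMT2, which turns serine into glycine in mitochondria, and MTHFD2, which oxidises the folate-bound carbon unit that this releases, are the next steps. SHMT2 was measured at 187, 204 and 192 TPM on plastic, 99.5, 97.5 and 98.5 TPM on the gel and 158, 175 and 153 TPM with YAP-HA. Its 3 groups did not overlap. It fell on the gel to 50.7% of the plastic mean (log2 difference -0.97 ± 0.063 (SE), adjusted p = 4.04e-06), was higher with YAP-HA than on the gel (log2 difference 0.71 ± 0.063 (SE), adjusted p = 1.26e-05), and stayed below plastic there (log2 difference -0.26 ± 0.063 (SE), adjusted p = 0.0096). MTHFD2 was measured at 124, 121 and 131 TPM on plastic, 78.1, 73.3 and 78.4 TPM on the gel and 120.4, 131 and 136 TPM with YAP-HA. Here plastic and YAP-HA overlapped and the gel lay below both (log2 difference -0.70 ± 0.063 (SE), adjusted p = 3.02e-05 against plastic and log2 difference 0.75 ± 0.063 (SE), adjusted p = 9.02e-06 for YAP-HA against gel). In GENCODE v29, 29.7% of the exonic bases of MTHFD2 overlap SLC4A5 on the opposite strand and 14.1% of those of SHMT2 overlap a gene antisense to it. The kit keeps strand, but the strand setting of the counting is not given in the sources used here.

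ASNS, which makes asparagine, differed from the serine enzymes in the YAP-HA group. ASNS was measured at 65.1, 69.0 and 60.5 TPM on plastic, 31.6, 37.2 and 37.3 TPM on the gel and 43.1, 42.3 and 44.0 TPM with YAP-HA. The groups did not overlap, with plastic highest and the gel lowest. ASNS on the gel was at 54.5% of the plastic mean (log2 difference -0.86 ± 0.078 (SE), adjusted p = 3.34e-05). YAP-HA cells were above the gel by a log2 difference of 0.28 (adjusted p = 0.0133) and below plastic by more than that (log2 difference -0.58 ± 0.078 (SE), adjusted p = 0.000385). In GENCODE v29, 79.7% of its exonic bases are shared with another transcript on the same strand. The annotation behind the TPM values is not given, so whether reads were divided between them is unknown.

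**Figure D3:**
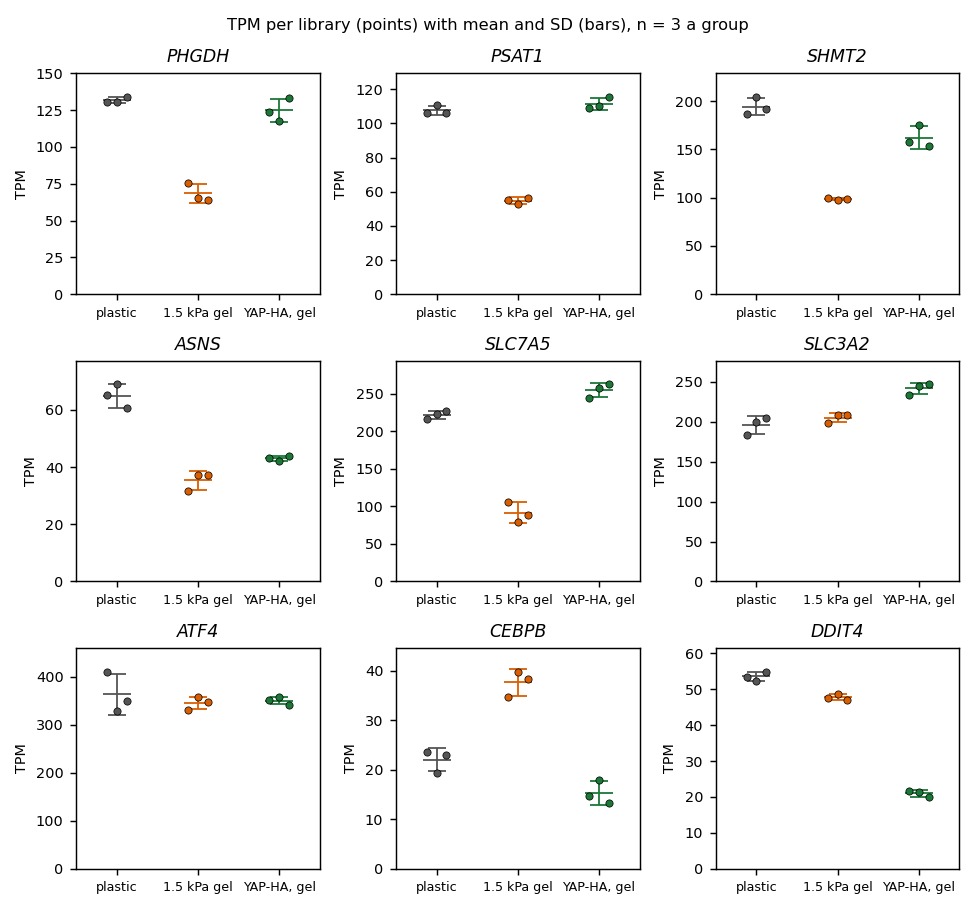
TPM (y axis, from 0) in each library (points) of the 3 groups (x axis) for 9 genes, with the mean and SD of n = 3. PHGDH, PSAT1, SHMT2, ASNS and SLC7A5 are lowest on the gel, CEBPB is highest there, DDIT4 is lowest with YAP-HA, and the ATF4 points of the groups overlap.

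Among the amino acid transporters, 4 of 6 were called lower on the gel and none higher, and with YAP-HA against the gel 5 of 6 were called higher and none lower. The shares of all genes were 27.9% lower and 22.6% higher on the gel, and 24.5% higher and 23.9% lower with YAP-HA against the gel. SLC7A5 (LAT1), the light chain of the exchanger that brings in leucine and other large neutral amino acids, had the largest decrease of the 34 genes on the gel. SLC7A5 was measured at 216, 223 and 226 TPM on plastic, 106, 79.5 and 89.0 TPM on the gel and 244, 257 and 263 TPM with YAP-HA. The gel mean was 41.3% of that on plastic (log2 difference -1.28 ± 0.090 (SE), adjusted p = 7.40e-06), and YAP-HA cells were above the gel (log2 difference 1.48 ± 0.090 (SE), adjusted p = 8.80e-07). All YAP-HA libraries also lay above all plastic libraries, by a log2 difference of 0.20 that was not called (adjusted p = 0.116). It was called on leaving out gel replicate 1 (adjusted p = 0.0185) and in a fit of only these 2 groups (adjusted p = 0.0146). Under median-of-ratios scaling it was 0.25 and was called too (adjusted p = 0.0265).

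SLC3A2, the heavy chain that carries SLC7A5 and SLC7A11 to the membrane, was not called on the gel against plastic. SLC3A2 was measured at 183, 199.6 and 204 TPM on plastic, 198, 208 and 208 TPM on the gel and 234, 245 and 247 TPM with YAP-HA. Plastic and gel overlapped (log2 difference 0.07 ± 0.056 (SE), adjusted p = 0.346), and all YAP-HA libraries were higher than the gel (log2 difference 0.24 ± 0.056 (SE), adjusted p = 0.00593) and plastic (log2 difference 0.31 ± 0.056 (SE), adjusted p = 0.00237). The mean levels of SLC7A5 and SLC3A2, side by side, were 222 against 196 TPM on plastic, 91.6 against 205 TPM on the gel and 255 against 242 TPM with YAP-HA.

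SLC7A1 (CAT1) imports arginine and lysine, and SLC1A4 and SLC1A5 exchange small neutral amino acids such as serine, alanine and glutamine. SLC7A1 was measured at 66.1, 69.7 and 74.4 TPM on plastic, 46.5, 33.6 and 35.4 TPM on the gel and 63.2, 66.3 and 73.4 TPM with YAP-HA. SLC1A4 was measured at 7.54, 8.69 and 7.85 TPM on plastic, 5.21, 3.85 and 4.07 TPM on the gel and 7.57, 7.35 and 8.13 TPM with YAP-HA. For both, gel lay below the other groups, which overlapped each other. The differences were -0.86 and -0.75 for gel against plastic (adjusted p = 0.000256 and 0.000469) and 0.81 and 0.70 for YAP-HA against gel (adjusted p = 0.000264 and 0.000579). SLC1A5 was low throughout, with 3.20, 2.74 and 3.39 TPM on plastic, 2.25, 2.46 and 2.27 TPM on the gel and 3.29, 3.70 and 3.47 TPM with YAP-HA. It was called higher with YAP-HA than on the gel (log2 difference 0.43 ± 0.106 (SE), adjusted p = 0.00728). Its decrease on the gel (log2 difference -0.30 ± 0.106 (SE), adjusted p = 0.0367) lost its call on leaving out any 1 of 5 plastic or gel libraries, all but plastic replicate 2 (adjusted p = 0.0570 to 0.123), and under quantile normalization (log2 difference -0.19, adjusted p = 0.175). SLC7A11 (xCT), the cystine importer, was called in no comparison, at 11.3 to 16.0 TPM on plastic, 12.9 to 15.4 TPM on the gel and 12.4 to 15.8 TPM with YAP-HA.

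The remaining 6 genes of the ATF4 list are stress effectors and other targets. They did not move as a block on the gel against plastic or with YAP-HA against the gel. Against plastic, 4 were called lower on the gel and 4 lower with YAP-HA, and for YAP-HA against the gel 2 were called lower and 1 higher. Beside these counts stand 27.9%, 20.2% and, for YAP-HA against the gel, 23.9% lower and 24.5% higher of all genes. Under median-of-ratios scaling the 2 lower with YAP-HA than on the gel became 4. Without gel replicate 2 the first count was 1, and without plastic replicate 2 it was 2. With YAP-HA against plastic, all 6 genes had every YAP-HA library below every plastic library, beside 28.4% of all genes. PCK2, the mitochondrial form of PEP carboxykinase, was lowest on the gel. PCK2 was measured at 18.6, 16.0 and 17.1 TPM on plastic, 8.68, 8.54 and 8.01 TPM on the gel and 11.5, 12.3 and 13.6 TPM with YAP-HA. Its groups did not overlap: it was at 48.8% of plastic on the gel (log2 difference -0.95 ± 0.088 (SE), adjusted p = 3.68e-05), higher with YAP-HA than on the gel (log2 difference 0.51 ± 0.088 (SE), adjusted p = 0.000934), and lower with YAP-HA than on plastic (log2 difference -0.44 ± 0.088 (SE), adjusted p = 0.00391).

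DDIT4 (REDD1), a stress-induced inhibitor of the kinase complex mTORC1, was set apart by a decrease with YAP-HA. DDIT4 was measured at 53.4, 52.4 and 55.0 TPM on plastic, 47.5, 48.8 and 47.1 TPM on the gel and 21.6, 21.5 and 19.9 TPM with YAP-HA. YAP-HA was far below both other groups, at 43.9% of the gel mean (log2 difference -1.15 ± 0.060 (SE), adjusted p = 2.53e-07) and 39.2% of the plastic mean (log2 difference -1.31 ± 0.060 (SE), adjusted p = 2.12e-07). The small decrease on the gel (log2 difference -0.16 ± 0.060 (SE), adjusted p = 0.0445) lost its call on leaving out any 1 library other than YAP-HA replicate 3 (adjusted p = 0.0581 to 0.132), and under median-of-ratios scaling its log2 difference was -0.10. In the annotation, 48.5% of the exonic bases of DDIT4 overlap DDIT4-AS1 on the opposite strand.

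STC2, a secreted glycoprotein induced by ER stress, was also lower with YAP-HA. STC2 was measured at 117, 139 and 122 TPM on plastic, 148, 113 and 126 TPM on the gel and 86.7, 96.7 and 102 TPM with YAP-HA. Gel and plastic overlapped (log2 difference 0.03, adjusted p = 0.817), whereas YAP-HA lay below the gel (log2 difference -0.43 ± 0.104 (SE), adjusted p = 0.00648) and below plastic (log2 difference -0.40 ± 0.104 (SE), adjusted p = 0.0142). The latter call was lost without plastic replicate 2 or YAP-HA replicate 1 (adjusted p = 0.0540 to 0.0579). VLDLR, a lipoprotein receptor induced by ATF4, was measured at 34.8 ± 2.90 TPM (SD, n = 3) on plastic, 27.3 ± 1.70 TPM on the gel and 22.8 ± 3.07 TPM with YAP-HA. It was lower than plastic on the gel (log2 difference -0.34 ± 0.101 (SE), adjusted p = 0.0184) and with YAP-HA (log2 difference -0.59 ± 0.101 (SE), adjusted p = 0.00145). The first of these calls was lost without plastic replicate 2 or gel replicate 2 (adjusted p = 0.0576 to 0.0704). YAP-HA and gel overlapped for VLDLR (log2 difference -0.26, adjusted p = 0.0568), a difference that was called without YAP-HA replicate 3 (adjusted p = 0.0119).

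CHAC1, an enzyme that degrades glutathione, was low, at 4.16 to 4.39 TPM on plastic, 2.32 to 3.16 TPM on the gel and 2.87 to 3.83 TPM with YAP-HA. It was called lower on the gel (log2 difference -0.45 ± 0.126 (SE), adjusted p = 0.0134), a call that was lost without gel replicate 2 (log2 difference -0.35, adjusted p = 0.0512). SESN2, a leucine sensor upstream of mTORC1, was called in no comparison. It was at 7.56 to 8.14 TPM on plastic, 7.94 to 8.44 TPM on the gel and 6.61 to 7.15 TPM with YAP-HA. All YAP-HA libraries thus lay below those of both other groups. The log2 difference of YAP-HA to the gel was -0.20 (adjusted p = 0.0564). It was called under median-of-ratios scaling (adjusted p = 0.0385) and with a pseudocount of 0.1 (adjusted p = 0.0496).

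The 12 cytosolic synthetases of the list, each of which joins an amino acid to its tRNA (EPRS1 joins both glutamate and proline), were well expressed. Their summed level was 1518 to 1584 TPM on plastic, 1219 to 1317 TPM on the gel and 1426 to 1554 TPM with YAP-HA. On the gel, the largest decreases were those of the methionine, alanine and glutamate-proline enzymes. AARS1 was measured at 117, 119.7 and 126 TPM on plastic, 87.2, 74.8 and 77.3 TPM on the gel and 111, 115 and 122 TPM with YAP-HA. EPRS1 was measured at 77.8, 87.7 and 79.7 TPM on plastic, 56.7, 53.2 and 53.7 TPM on the gel and 81.3, 82.4 and 97.9 TPM with YAP-HA. In both, the gel libraries lay below all others and plastic overlapped YAP-HA. AARS1 on the gel was at 66.1% of plastic (log2 difference -0.59 ± 0.070 (SE), adjusted p = 0.000132) and EPRS1 at 66.8% (log2 difference -0.57 ± 0.081 (SE), adjusted p = 0.000377). With YAP-HA both were above the gel, by log2 differences of 0.54 and 0.66 (adjusted p = 0.000164 and 0.000112).

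MARS1 was measured at 166, 169 and 166 TPM on plastic, 119.7, 90.3 and 103 TPM on the gel and 119, 129.5 and 142 TPM with YAP-HA. Plastic lay above all other libraries, and gel and YAP-HA overlapped by a small margin. MARS1 fell on the gel (log2 difference -0.68 ± 0.097 (SE), adjusted p = 0.000394). It was called higher with YAP-HA than on the gel (log2 difference 0.32 ± 0.097 (SE), adjusted p = 0.0193), but not without gel replicate 2, gel replicate 3 or YAP-HA replicate 3 (adjusted p = 0.0520 to 0.0761). It was called lower with YAP-HA than on plastic (log2 difference -0.36 ± 0.097 (SE), adjusted p = 0.0171), but not without YAP-HA replicate 1 (adjusted p = 0.0689). MARS1 and DDIT3 overlap on opposite strands over 62 exonic bases, and their directions on the gel were opposite.

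The glycine, isoleucine, cysteine, tyrosine, leucine and serine enzymes (GARS1, IARS1, CARS1, YARS1, LARS1 and SARS1) were called lower on the gel, with log2 differences between -0.32 and -0.17. GARS1 was measured at 169.5, 173 and 165 TPM on plastic, 136, 136 and 134 TPM on the gel and 162, 162 and 161 TPM with YAP-HA. Its libraries varied little within a group, and the groups did not overlap, with plastic highest and gel lowest (log2 difference -0.32 for gel against plastic, adjusted p = 0.000421, and 0.26 for YAP-HA against gel, adjusted p = 0.00126). IARS1, CARS1, YARS1 and SARS1 were called higher with YAP-HA than on the gel, by 0.35, 0.20, 0.25 and 0.28, and LARS1 was not (log2 difference 0.15, adjusted p = 0.0717). Leaving out 1 library ended the call of LARS1 on the gel (without plastic replicate 2 or gel replicate 3, adjusted p = 0.0539 to 0.0685), made that with YAP-HA (without gel replicate 1, adjusted p = 0.0458), ended that of SARS1 on the gel (without plastic replicate 3, gel replicate 2 or gel replicate 3, adjusted p = 0.0533 to 0.0772) and that of CARS1 with YAP-HA (without gel replicate 2, gel replicate 3 or YAP-HA replicate 2, adjusted p = 0.0567 to 0.0634). Under median-of-ratios scaling the log2 difference of SARS1 on the gel was -0.11 and was not called.

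NARS1, TARS1 and WARS1 were the exceptions. NARS1 (asparagine) was measured at 127, 163 and 144 TPM on plastic, 121, 114 and 126 TPM on the gel and 149.8, 149.8 and 181 TPM with YAP-HA. Its gel libraries lay below the plastic libraries by a log2 difference of -0.26 that just missed the threshold (adjusted p = 0.0537) and passed it without plastic replicate 1 or YAP-HA replicate 3 (adjusted p = 0.0183 to 0.0347), and it was higher with YAP-HA than on the gel (log2 difference 0.40 ± 0.10 (SE), adjusted p = 0.00733). TARS1 was measured at 124, 125 and 123 TPM on plastic, 131, 149 and 138 TPM on the gel and 143, 146 and 148 TPM with YAP-HA. TARS1 (threonine) was the only synthetase of the list called higher on the gel (log2 difference 0.16 ± 0.057 (SE), adjusted p = 0.0349). That call was lost on leaving out any 1 library other than gel replicate 1 or YAP-HA replicate 3 (adjusted p = 0.0514 to 0.131), and with TPM rescaled without mitochondrially encoded genes the log2 difference was 0.07. TARS1 was also called higher with YAP-HA than on plastic (log2 difference 0.23 ± 0.057 (SE), adjusted p = 0.0108).

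WARS1 (tryptophan) was lower in each step. WARS1 was measured at 209, 202 and 202 TPM on plastic, 189.9, 157 and 156 TPM on the gel and 128, 131 and 134 TPM with YAP-HA. No groups overlapped: plastic was highest and YAP-HA lowest. It fell on the gel (log2 difference -0.29 ± 0.074 (SE), adjusted p = 0.00928) and was lower still with YAP-HA (log2 difference -0.35 ± 0.074 (SE), adjusted p = 0.00321 against the gel and log2 difference -0.64 ± 0.074 (SE), adjusted p = 0.000143 against plastic). It was the only member of the list called lower with YAP-HA than on the gel. Over both lists, of the 9 genes with the C form of the motif 7 were called lower and 1 higher on the gel, of the 4 with another base 3 lower and none higher, and of the 16 with a promoter entry and no match 11 lower and 2 higher. Of all 34 members 25 were called lower and 3 higher there, and of all genes 27.9% and 22.6%. Most members were called lower with or without the motif, and a link to it was not tested.

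The cytosolic synthetases outside the list, with the scaffold proteins that hold several of them in a complex, differed in direction on the gel. Of these 12 genes 7 were called higher and 1 lower on the gel, with a median log2 difference of 0.27 beside -0.28 for the 12 of the list, and the median stayed above 0 under every alternative. The arginine enzyme RARS1 rose (log2 difference 0.45 ± 0.068 (SE), adjusted p = 0.000523), as did FARSB, a subunit of the phenylalanine enzyme (log2 difference 0.36 ± 0.069 (SE), adjusted p = 0.00177), and the scaffold protein EEF1E1 (log2 difference 0.45 ± 0.087 (SE), adjusted p = 0.00194). QARS1, the glutamine enzyme, fell (log2 difference -0.65 ± 0.111 (SE), adjusted p = 0.00104). With YAP-HA against the gel 2 were called higher and 1 lower (median 0.11), and with YAP-HA against plastic 7 were called higher and none lower (median 0.27). Against the gel, the 2 became 6 and the 1 lower (AIMP2) became 0 once mitochondrially encoded genes were left out of the TPM. In the same comparison the call of QARS1 was lost without gel replicate 3 or YAP-HA replicate 2 (adjusted p = 0.0525 to 0.0549), and that of AIMP2 without gel replicate 2 or 3 or YAP-HA replicate 1 or 3 (adjusted p = 0.0590 to 0.0730). The shares of all genes called higher were 22.6% on the gel, 24.5% with YAP-HA against the gel and 14.2% with YAP-HA against plastic. Both sets of synthetases were chosen by name with earlier results of these data known, so their contrast is not independent of these data. The difference between them was not tested.

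Of 16 mitochondrial synthetases, made in the cytosol but used in mitochondria, 6 were called higher and none lower on the gel (median 0.10), beside 22.6% and 27.9% of all genes. YARS2 (0.78) and MARS2 (0.47), the tyrosine and methionine enzymes, rose (adjusted p = 0.000469 and 0.00227). HARS2, the histidine enzyme, was called higher too (0.25, adjusted p = 0.018), but not without plastic replicate 1, without gel replicate 3 (adjusted p = 0.0607) or without mitochondrially encoded genes (adjusted p = 0.0872). The 6 became 3 on leaving out plastic replicate 2, gel replicate 2 or gel replicate 3, with the call of FARS2 (0.33, adjusted p = 0.0255) among those lost each time, became 4 without plastic replicate 1, and became 2 with 1 lower and a median of 0.01 when mitochondrially encoded genes were left out of the TPM. With YAP-HA against the gel 5 were called higher and 2 lower (median 0.10), beside 24.5% and 23.9% of all genes, with 3 higher and 1 lower without gel replicate 2 or YAP-HA replicate 1 and 1 lower also without replicate 3 of either group, and against plastic 7 higher and none lower (median 0.19), beside 14.2% and 20.2%.

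Further known ATF4 targets, 18 of 24 tested, were counted as a second view of the pathway. On the gel 11 were called lower and 3 higher (median -0.46), with YAP-HA against the gel 9 higher and 3 lower (median 0.19), and with YAP-HA against plastic 6 lower and 1 higher (median -0.16). The shares of all genes in the leading direction were 27.9%, 24.5% and 20.2%. CBS, the first enzyme from homocysteine towards cysteine, was at 34.5 TPM on plastic and 13.9 TPM on the gel (log2 difference -1.26 ± 0.092 (SE), adjusted p = 9.27e-06). GPT2, a mitochondrial alanine aminotransferase (log2 difference -1.09 ± 0.114 (SE), adjusted p = 6.94e-05), and JDP2, a factor that dimerises with bZIP proteins (log2 difference -0.95 ± 0.097 (SE), adjusted p = 6.23e-05), fell as well. SQSTM1 (p62), an autophagy receptor, rose (log2 difference 1.00 ± 0.052 (SE), adjusted p = 9.93e-07) and was lower with YAP-HA than on the gel (log2 difference -1.21 ± 0.052 (SE), adjusted p = 6.43e-08).

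Upstream of ATF4, of 15 genes for the eIF2 kinases, eIF2, its exchange factor eIF2B and their regulators, 7 were called higher and 4 lower on the gel (median -0.04), and 4 were called higher and none lower with YAP-HA, both against the gel (median 0.15) and against plastic (median 0.14). Of all genes 22.6% were called higher and 27.9% lower on the gel, and 24.5% and 14.2% were called higher in the comparisons with YAP-HA, so the 4 against the gel are near the background. EIF2B3 and EIF2B5, subunits of eIF2B, rose on the gel by 0.68 and 0.34 (adjusted p = 6.94e-05 and 0.00252). The decrease of the ER-stress kinase gene EIF2AK3 (-0.51, adjusted p = 0.0206), whose gel and plastic libraries overlapped, lost its call without any 1 of plastic replicates 1 and 2 and gel replicates 2 and 3 (adjusted p = 0.0588 to 0.0789). That of GCN1, which activates the kinase for uncharged tRNA (-0.34, adjusted p = 0.0468), lost it without any 1 library other than plastic replicate 1 or gel replicate 1 (adjusted p = 0.0558 to 0.173). Leaving out 1 library brought the 4 lower genes to as few as 1 (without plastic replicate 2 or gel replicate 2) and the 7 higher genes to as few as 3 (without gel replicate 3), and without mitochondrially encoded genes the 7 became 2. The 4 higher genes of YAP-HA against the gel became 2 without gel replicate 2, gel replicate 3 or YAP-HA replicate 3, and 7 without mitochondrially encoded genes.

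Chaperones and other genes of the ATF6 and XBP1 arms of ER stress, which can accompany ATF4 activity, took another course. Of 19 genes 11 were called higher and 4 lower on the gel (median 0.16), 2 higher and 15 lower with YAP-HA against the gel (median -0.35), and 1 higher and 6 lower with YAP-HA against plastic (median -0.10). Beside them stand 22.6% higher and 27.9% lower, 24.5% and 23.9%, and 14.2% and 20.2% of all genes. Without plastic replicate 2 or 3 or gel replicate 2 or 3 the 4 lower genes became 2. Of the genes called higher on the gel, HERPUD1 (0.15, adjusted p = 0.0490) lost its call on leaving out any 1 library (adjusted p = 0.0535 to 0.137). HERPUD1, PDIA6 and CALR all lost theirs under quantile normalization (adjusted p = 0.126 to 0.775) and without mitochondrially encoded genes (adjusted p = 0.0971 to 0.475). The 1 higher gene against plastic, SDF2L1 (0.42, adjusted p = 0.0285), lost its call without plastic replicate 1 or 2 or YAP-HA replicate 1 or 2 (adjusted p = 0.0698 to 0.0985) and with a replicate block (adjusted p = 0.0560). SDF2L1, DNAJB9, CRELD2 and MANF, which encode ER proteins induced on folding stress, rose on the gel by 1.02, 0.85, 0.94 and 0.80 on the log2 scale (adjusted p = 0.000203, 0.000109, 0.000107 and 0.000114) and fell by 0.60, 1.02, 1.10 and 0.66 with YAP-HA against the gel.

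Some measures of growth and of RNA make-up also differed between these groups. Of 6 cell-cycle genes 4 were called lower on the gel, 6 higher with YAP-HA than on the gel and 5 higher with YAP-HA than on plastic, beside 27.9%, 24.5% and 14.2% of all genes, and their summed level was 657 to 712 TPM on plastic, 565 to 576 TPM on the gel and 921 to 989 TPM with YAP-HA. The proliferation marker MKI67 differed by -1.06 on the gel (adjusted p = 3.44e-05) and by 1.20 with YAP-HA against the gel (adjusted p = 6.86e-06). TOP2A, BUB1 and AURKB, which act in mitosis, differed on the gel by -0.73, -0.26 and -0.18 (adjusted p = 0.000336, 0.0086 and 0.0384), the last losing its call without any 1 library other than plastic replicate 2 or YAP-HA replicates 1 and 3 (adjusted p = 0.0525 to 0.127) and under median-of-ratios scaling (log2 difference -0.12). CDK1 and CCNB1, the other genes of this list, overlapped between gel and plastic and were not called (0.02 and 0.03, adjusted p = 0.874 and 0.572). Of the 8 RPE markers tested, 4 were called lower and 1 higher on the gel, beside 27.9% and 22.6% of all genes. MITF and PMEL, pigment cell genes, and SERPINF1, a secreted factor, fell (-1.58, -1.07 and -0.61, adjusted p = 3.60e-06, 6.82e-05 and 0.0071), BEST1, a chloride channel, rose (0.50, adjusted p = 0.00782), and the keratins KRT8 and KRT18 were not called (0.03 and -0.09). CD68, the 1 other-cell-type marker above the filter, ranged from 75.4 to 198 TPM and was lower with YAP-HA than on the gel (log2 difference -0.84 ± 0.149 (SE), adjusted p = 0.00116), while PTPRC, CD3E and the endothelial and photoreceptor markers stayed below 1 TPM. The share of mitochondrially encoded transcripts was lowest on the gel, as given above. Leaving these transcripts out of the TPM therefore lowers the other genes on the gel relative to plastic. The median on the gel then was -0.50 in place of -0.40 for the ATF4 list and -0.37 in place of -0.28 for the synthetases. For all genes it was -0.13 in place of -0.04. A negative median could only become more negative here, so these values do not test the part of the mitochondrial share. The part of these measures in the results on the lists was not tested.

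Within groups the 34 genes were measured closely, with a median coefficient of variation of 4.34% on plastic, 4.99% on the gel and 5.14% with YAP-HA. The widest were SLC7A11 on plastic (17.4%), SLC7A1 on the gel (18.0%) and CEBPB with YAP-HA (15.5%). Among the gel libraries, replicate 1 was the highest for most of the 34 genes, among them SLC7A5, SLC7A1, SLC1A4 and every synthetase of the list but NARS1 and TARS1. Replicate 1 also had the highest mitochondrial share of the 3. Rows of pseudogenes of these genes reached at most 0.07 TPM. In the annotation 16 of the 34 genes share exonic bases with another gene, 15 of them with one on the opposite strand, and reads there could be split or shared by the counting.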

How the data were processed

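Bulk RNA-seq of 9 ARPE-19 libraries was used. Per the labels, RNA with an integrity number above 7 went into a stranded poly-A kit. The authors deposited TPM values, and the processing notes of the submitters name STAR (2.7.3a and 2.7.10b), RSEM and, for human reads, GRCh38, without saying which version served which samples. The annotation release, replicate source and strand setting are not given in the sources used here. TPM keeps no depth, so it is unknown. All per-sample columns were mapped to samples by the labels (0 left over). The single-cell and mouse files of the series were not used.

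Genes that reached 1 TPM in 3 or more of the 9 libraries were tested with limma 3.58.1 (trend on, robust off, R 4.3.3) on log2(TPM + 1), a scale that understates changes of low genes, in 1 fit of all groups. P-values were adjusted by Benjamini-Hochberg over all 14606 genes. Python 3.11.15 and pandas 2.3.3 served for the rest. In simulated data for gel against plastic, 90% of 100 genes changed by 1 and 98% of 100 changed by 2 on the log2 scale were recovered among 14606. All other genes were left unchanged there, whereas 50.5% of all genes were called in the data. Most differences of the members were below 1, so these rates do not measure how well such differences are recovered. The members and lists were chosen with earlier results of these data known. All 34 members are named and, of each other list, up to 4 called genes with the largest difference between gel and plastic, with YAP1, CCN1, CCN2 and ANKRD1 as a check of overexpression. From the lists, 1 gene is left out of every count and is not reported here. AIMP2, HERPUD1, PDIA6, CALR, KRT8, KRT18, CD68, RPE65, TTR, TYR, TYRP1, PTPRC and CD3E were named after their values were seen. Overlaps and strands come from GENCODE v29 and promoters from RefSeq.

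Alternatives were a pseudocount of 0.1, no filter, a minimum TPM of 5, a fit of 2 groups only, a replicate block, median-of-ratios scaling, quantile normalization, TPM without mitochondrially encoded genes, and leaving out each library.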

Additional observations from a re-analysis of the deposited data

How the results depend on the processing

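The counts of genes called in both lists stayed within 1.5 times of their value in each comparison under all 17 alternatives. For gel against plastic, the 17 called genes of the ATF4 list became 15 to 17 under the 8 alternatives of scaling, filter and fit and 13 to 17 on leaving out 1 library, and the 11 synthetases became 10 to 12 and 8 to 12. For YAP-HA gel against gel, 16 became 16 to 18 and 15 to 17, and 10 became 9 to 12 and 8 to 11. For YAP-HA gel against plastic, 9 became 9 to 10 and 8 to 10, and 3 became 2 to 4 and 2 to 3. Of 102 comparisons of single members, 83 had the same call in every setting. Of 1728 combinations of member, comparison and setting, 55 lost a call, 18 gained one and 0 reversed.

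The replicate numbers do not pair the libraries: deviations of libraries with the same number correlated at -0.12 to 0.094 over 9 pairs, and 0 of 9 libraries correlated best with their own number in both other groups. With a replicate block the counts were 15, 10, 16, 10, 9 and 3, in the order above.

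Scaling moved the balance of all genes. Of the genes called, 44.8% were higher on the gel than on plastic, and 33.0% when mitochondrially encoded genes were left out of the TPM. For YAP-HA gel against gel these were 50.6% and 61.4%. For YAP-HA gel against plastic 41.3% were higher, and 54.5% after quantile normalization. The cause was not tested. Without depth, no limit of detection can be given for the low members SLC1A5, CHAC1, SLC1A4 and SESN2.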
